A study of Mus musculus with 18 samples.

Results

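The ribosomes carried by selenoprotein mRNAs of normal mouse liver were set against the mRNAs themselves. The libraries were the 6 of the 18 in the series that came from Trsp wild type livers: 3 of ribosome footprints (ribo-seq) and 3 of polyA-enriched RNA (RNA-seq). The mice were male littermates of 5 to 8 weeks that carried wild type alleles, and no deletion was labelled in them. Trsp is the gene of the transfer RNA for selenocysteine, and the name marks the colony from which these wild type livers came. The 2 footprint and 2 RNA-seq libraries from livers of Secisbp2 wild type littermates, of the same sex and age range, were used only as the other normal livers of the series. Knockout libraries entered no comparison. The deposited values covered 23 selenoprotein genes. Each had a level 5' of its UGA codon, a level 3' of it and an mRNA level, all as RPKM, reads normalised to length and to mapped reads. RPKM is per length, so that genes and windows can be set beside each other. The lengths behind the values differ between the measures. For Selenoi the mRNA level was over 6769 nt and the 5' level over 1131 nt. Whether the lengths match the transcripts present in these livers was not tested, and a ratio to mRNA depends on them.

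Selenocysteine is inserted at an in-frame UGA codon, which in other mRNAs ends translation. A hairpin in the 3' untranslated region, the SECIS element, directs the insertion, and a ribosome at the UGA either reads through it or stops there. Footprints 5' of the UGA therefore count ribosomes that have started on the mRNA, and footprints 3' of it count those that have passed the UGA. Liver is the main source of selenoprotein P, which carries selenium in plasma, and is rich in the cytosolic glutathione peroxidase Gpx1. Whole liver holds several cell types, so that fewer cells of a type and less RNA per cell cannot be told apart. The 15 marker genes chosen for liver cell types were not among the 23 genes of the tables, and the tissue label was not checked by them.

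Reads could be recovered exactly from the deposited RPKM. The 3 footprint libraries held 7247127, 5948610 and 5065579 reads in the total used for RPKM, and the 3 RNA-seq libraries 19779672, 22539919 and 22845094. Selenoprotein mRNAs took 0.859% to 0.97% of the RNA-seq reads. The footprint library of replicate 2 stood apart from the other two. It had 8688 selenoprotein reads 3' of the UGA and 8418 reads 5' of it, a ratio of 1.03, against 1.89 in replicate 1 and 1.96 in replicate 3. Gpx1 made up 33.1% of its 5' reads, against 14.7% and 11.8%. Without the 5' reads of Gpx1 its ratio was 1.54, against 2.21 and 2.23. In that library Gpx1, Selenok and Selenom were over 1.5-fold above both other libraries 5' of the UGA and Selenot was as far below them, while Gpx1, Msrb1, Selenof and Selenoi were that far below 3' of it. Values without this library stand beside the results of these genes. The labels do not say which livers gave both a footprint and an RNA-seq library.

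The mean mRNA levels of the 23 genes ran from 2092 RPKM down to 0.0336 RPKM. Selenop, encoding selenoprotein P, had 2158, 1854 and 2265 RPKM in the 3 livers, and Gpx1 had 2079, 1975 and 2184 RPKM. These ranges overlapped, so that no first place could be given. Together Selenop and Gpx1 made up 70.3% ± 1.43 (SD, n = 3) of the summed selenoprotein mRNA RPKM. Sephs2, the selenophosphate synthetase that makes the selenium donor, followed with 450 ± 15.1 RPKM (SD, n = 3). Msrb1, a methionine sulfoxide reductase, averaged 395 ± 18.6 RPKM and Gpx4, which reduces lipid hydroperoxides, averaged 275 ± 48.7 RPKM (SD, n = 3 each). These 5 mRNAs held 89.2% ± 1.01 of the summed RPKM (SD, n = 3). Each of the last 3 was set apart from its neighbours in these livers, since no ranges over livers overlapped. In the Secisbp2 wild type livers the order of these 3 was the reverse, with means of 539 RPKM for Gpx4, 343 RPKM for Msrb1 and 190 RPKM for Sephs2 (n = 2).

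The next group lay between 155 and 11.6 RPKM. Selenof, an endoplasmic reticulum protein of the oxidoreductase type, led it with 155 ± 17.4 RPKM. Dio1, the deiodinase that activates thyroid hormone in liver, had 97.2 ± 10 RPKM and could not be ordered against Selenos, of the degradation machinery of the endoplasmic reticulum, at 94.1 ± 6.2 RPKM. Selenok, another protein of that machinery, had 75.2 ± 7.23 RPKM, and the small redox protein Selenow had 64.3 ± 1.8 RPKM (SD, n = 3 each). Selenot averaged 41.3 RPKM, the cytosolic thioredoxin reductase Txnrd1 averaged 36.8 RPKM and Selenoo, a mitochondrial protein, averaged 35.2 RPKM. Txnrd1 overlapped with each of the others. The mitochondrial thioredoxin reductase Txnrd2 had 14.9 ± 0.836 RPKM, and Selenoi, an ethanolamine phosphotransferase of phospholipid synthesis, had 11.6 ± 1.37 RPKM (SD, n = 3 each).

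The low end began with Selenoh at 9 RPKM, which overlapped with Selenoi. Txnrd3, Selenom and Gpx3, the plasma glutathione peroxidase, had 2.27, 1.91 and 1.52 RPKM on average and could not be ordered as neighbours. Selenon had 0.409 ± 0.137 RPKM (SD, n = 3). Dio2, Gpx2 and Dio3 had 0.0441, 0.043 and 0.0336 RPKM on average, from 17, 3 and 4 reads over the 3 livers. Gpx2, the gastrointestinal glutathione peroxidase, and Dio3 had no read in the second liver, where a count of 0 allows up to 0.124 RPKM for Gpx2 and 0.0711 RPKM for Dio3. In all, 9 of the 22 pairs of neighbours in the order overlapped.

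**Figure D1:**
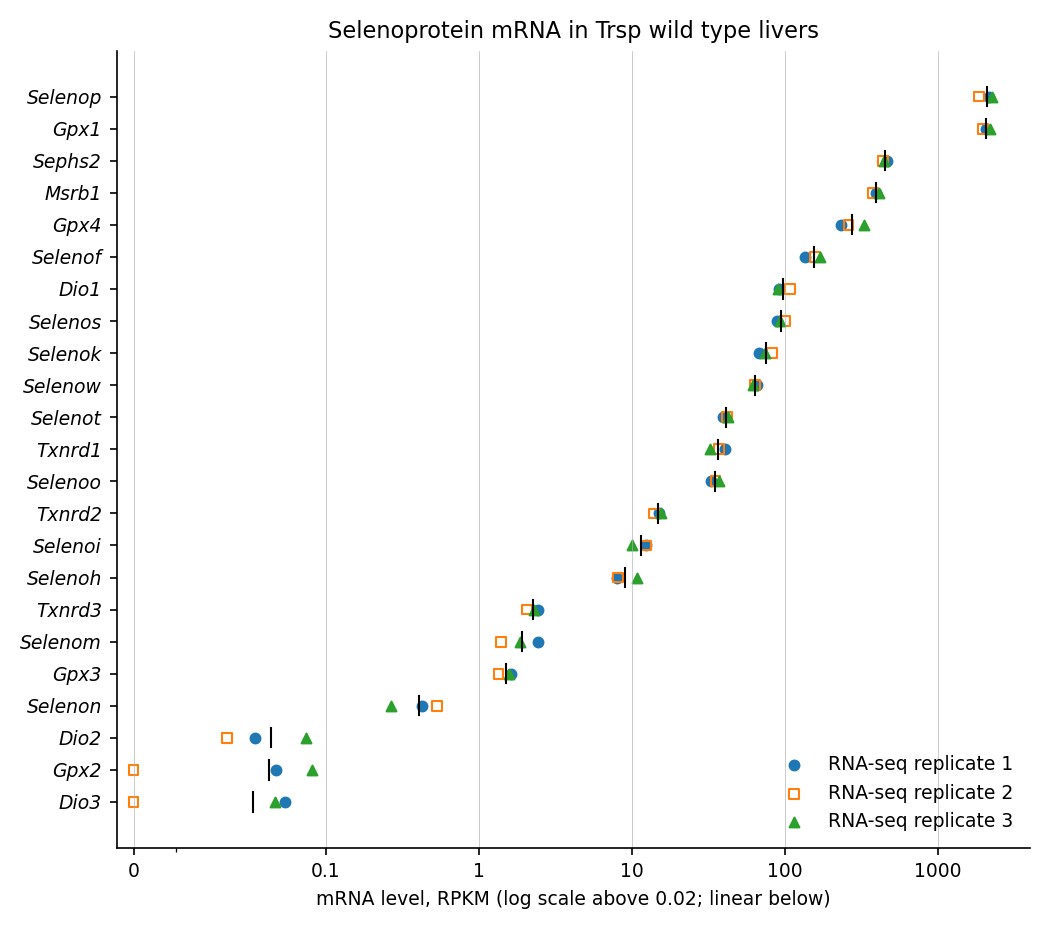
mRNA level of the 23 selenoprotein genes in the 3 Trsp wild type livers, in RPKM on an axis that is logarithmic above 0.02 and linear below. Each symbol is a liver and the black bar is the mean. Selenop and Gpx1 lie highest, at means of 2092 and 2079 RPKM, with overlapping ranges, and Dio2, Gpx2 and Dio3 lie under 0.1 RPKM.

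Footprint densities kept most of this order. Across the 12 genes with at least 1 RPKM on average in all 3 tables, Spearman's rho was 0.937 for the 3' density with mRNA. Across the 19 genes with that level in the 5' and RNA tables, rho was 0.967 for the 5' density with mRNA. These are descriptions across genes, which share their libraries and are not independent replicates. Gpx1 and Selenop together held 73.9% ± 1.24 of the summed 3' RPKM, 65.5% ± 7.6 of the summed 5' RPKM and 70.3% ± 1.43 of the summed mRNA RPKM (SD, n = 3). The 5' share had the widest spread, and of it Gpx1 alone held 28.3%, 55.3% and 23% in the 3 footprint libraries. Among the 12 genes, 2 moved by 3 places between the mRNA order and the 3' order. Selenoi stood 7th by 3' density and 10th by mRNA, and Dio1 stood 10th by 3' density and 7th by mRNA. The spread between replicates was wider for footprints. The median coefficient of variation over the 12 genes was 25.1% for 3' densities, 22.7% for 5' densities and 10.2% for mRNA.

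Not every gene could be followed past its UGA. Selenok, Selenos, Selenoo, Txnrd1, Txnrd2 and Txnrd3 had 98 to 1846 reads 5' of the UGA in these livers and were listed at 0 in the 3' table in all 9 footprint libraries of the series. Their UGA is known to lie near the stop codon. Selenoi, another gene of that kind, had a 3' window of only 17 nt with 13, 1 and 4 reads in the 3 libraries. Gpx2, Dio2 and Dio3 had no footprint on either side of the UGA in these livers. For Gpx2 a count of 0 allows 0.947 to 1.36 RPKM 3' of the UGA and 4.76 to 6.81 RPKM 5' of it, well above its mRNA level. The 5' windows ran from 6 nt for Selenow to 1962 nt for Selenoo, and the number of reads behind a density differed accordingly.

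The ribosomes present 5' of the UGA, for the level of an mRNA, were read from the 5' density over mRNA. How often ribosomes started and how fast they moved were not measured, and the density does not separate them. The 5 genes Selenoi, Selenom, Txnrd1, Selenow and Selenot lay above the median selenoprotein, and the 3 genes Msrb1, Selenop and Sephs2 lay below it, in a range from 4.07-fold to 0.616-fold of the median gene among those called. With limma and Benjamini-Hochberg adjustment over the 19 genes tested, 26.3% were higher and 15.8% lower, together 42.1%. The tables hold no other genes, so these shares are those of the selenoproteins themselves. The median gene had a 5' density 1.11-fold its mRNA level (log2 0.15), which was subtracted. The sizes below are on the log2(RPKM + 0.5) scale, which understates differences of low genes.

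Selenoi had 47.6, 67.9 and 47.7 RPKM in footprints 5' of the UGA, against 12.4, 12.4 and 9.99 RPKM in mRNA. Every footprint value lay well above every mRNA value. Its 5' density over mRNA was 2.02 log2 units above the median gene (SE 0.185, limma adjusted p = 0.000831), from 1120 reads in a window of 1131 nt. Txnrd1, which reduces thioredoxin in the cytosol, had 60.8, 81.5 and 66.7 RPKM in 5' footprints, against 40.6, 37.3 and 32.6 RPKM in mRNA, and its 1846 reads lay in a window of 1461 nt. It was 0.76 log2 units above the median gene (SE 0.155, limma adjusted p = 0.017). Selenot, a thioredoxin-like protein of the endoplasmic reticulum, had 84.7, 56 and 90 RPKM in 5' footprints, against 39.3, 42 and 42.5 RPKM in mRNA. Its footprint values lay above its mRNA values, with the lowest in replicate 2, and it was 0.71 log2 units above the median gene (SE 0.2, limma adjusted p = 0.0339), and 1.00 above it without that library (adjusted p = 0.000861).

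Selenom and Selenow rested on few reads. Selenom, a thioredoxin-like protein of the endoplasmic reticulum, had 4.97, 12.1 and 5.34 RPKM in 5' footprints, against 2.45, 1.4 and 1.87 RPKM in mRNA, from 15 reads 5' of the UGA. It was 1.49 log2 units above the median gene (SE 0.367, limma adjusted p = 0.0227), and 1.18 above it without footprint replicate 2 (adjusted p = 0.00612). Selenow had 92, 112 and 165 RPKM in 5' footprints, against 66.1, 64.3 and 62.5 RPKM in mRNA, from 13 reads in a window of 6 nt. It was 0.74 log2 units above the median gene (SE 0.223, limma adjusted p = 0.0399), and weights from the reads took the call away (adjusted p = 0.0638).

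The 3 lower genes were among the 4 with the highest mRNA levels. The mRNA level is also the divisor of the ratio, so that level and ratio are not independent. Sephs2 had 318, 277 and 326 RPKM in 5' footprints, against 467, 439 and 443 RPKM in mRNA. It was 0.70 log2 units below the median gene (estimate -0.70, SE 0.11, limma adjusted p = 0.00755). Selenop had 1502, 1484 and 1664 RPKM in 5' footprints, against 2158, 1854 and 2265 RPKM in mRNA (estimate -0.58, SE 0.122, limma adjusted p = 0.017). Msrb1 had 319, 345 and 284 RPKM in 5' footprints, against 393, 377 and 414 RPKM in mRNA (estimate -0.47, SE 0.116, limma adjusted p = 0.0227). In each of the 3 genes all footprint values lay below all mRNA values in the authors' scaling. In that scaling, without centring, Msrb1 was not called (estimate -0.32, limma adjusted p = 0.0691).

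Of the other 11 genes, Selenok, Selenos, Txnrd3, Gpx4, Selenoo, Txnrd2, Selenof, Dio1 and Gpx1 had estimates between 0.45 and -0.37 log2 units. Selenok, at 0.45, had 87.4, 233 and 71.5 RPKM in 5' footprints, against 68.5, 82.8 and 74.2 RPKM in mRNA, and without footprint replicate 2 it was the median gene, at 0.00. Gpx3 was at -0.45 (SE 0.16, limma adjusted p = 0.0664), from 4 reads 5' of the UGA. Selenoh was at -1.51, with an SE of 1.2 (limma adjusted p = 0.409), from 5, 5 and 0 reads, where the count of 0 allows up to 7.31 RPKM. Without footprint replicate 3, the library with no read, it was at -0.13 (adjusted p = 0.731). Gpx1 had 1275, 4340 and 1020 RPKM in 5' footprints, against 2079, 1975 and 2184 RPKM in mRNA. The second footprint library alone lay above its mRNA values, and the estimate was -0.37 (SE 0.548, limma adjusted p = 0.667). Without that library Gpx1 was at -0.94 (SE 0.13, limma adjusted p = 0.00387), the lowest of the genes then past the threshold, and 5 genes were higher and 4 lower.

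Selenoi kept its call without any of the 6 libraries (limma adjusted p = 0.000283 to 0.00731) and with the replicate number as a block (0.00445). With that block the 7 other genes were not called, at unchanged estimates (limma adjusted p = 0.0597 to 0.0786). All 7 other calls were lost without RNA-seq replicate 1 (limma adjusted p = 0.0515 to 0.102), 5 without RNA-seq replicate 2 (0.0601 to 0.104), 6 without RNA-seq replicate 3 (0.08 to 0.143), those of Msrb1, Selenot and Selenow without footprint replicate 3 (0.0547 to 0.0902) and that of Selenot without footprint replicate 1 (0.157). When each library was centred on its own median gene, 2 genes were higher and 5 lower, with estimates shifted by -0.35. Txnrd1 (0.41, limma adjusted p = 0.0546), Selenow (0.39, 0.268) and Selenot (0.37, 0.297) were then no longer called. In the authors' scaling without centring 5 were higher and 2 lower, and Msrb1 was not called (limma adjusted p = 0.0691).

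**Figure D2:**
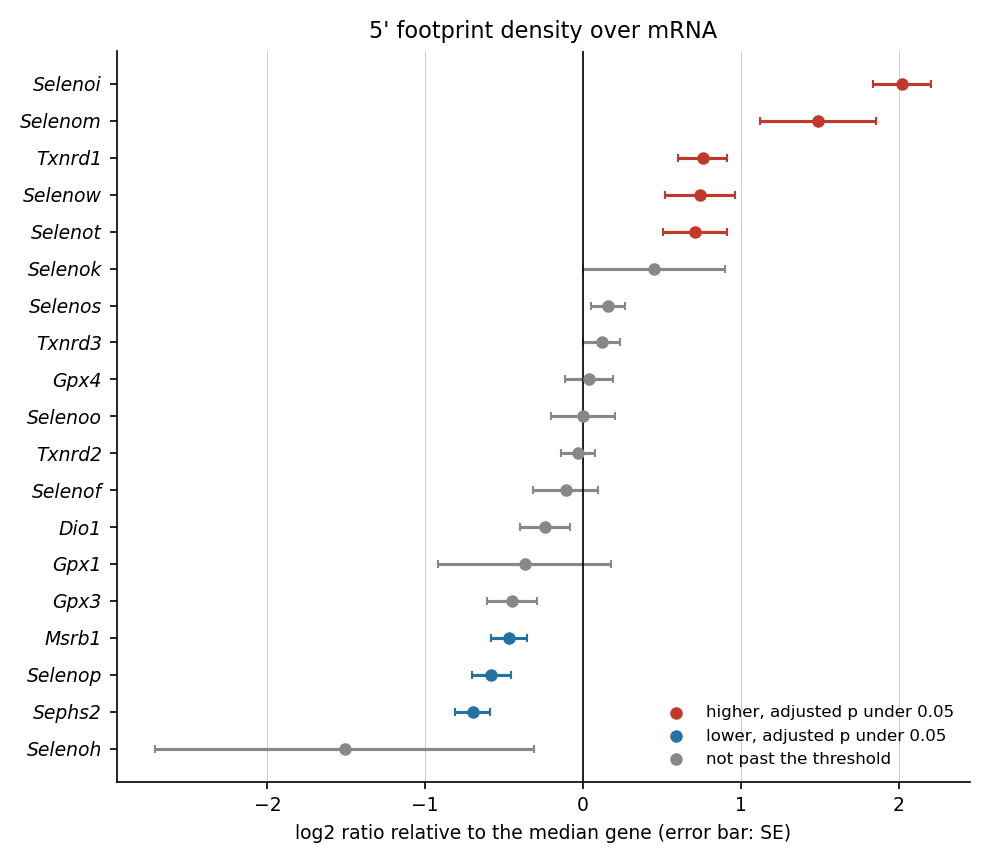
5' footprint density over mRNA for 19 selenoprotein genes in Trsp wild type livers, as log2 relative to the median gene, with the SE of the limma fit as bars. Selenoi lies at 2.02 and Sephs2 at -0.70, while the bars of Gpx1 and Selenoh are wide.

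Ribosomes that had passed the UGA were compared with those that had not reached it as the 3' over the 5' density within each footprint library, which no scaling of the library can change. Most genes had a lower density 3' of the UGA. Among 13 genes tested with limma, 7 were lower (53.8%) and 1 was higher (7.69%), together 61.5%. The 7 were Selenom, Dio1, Gpx4, Selenow, Selenot, Sephs2 and Selenop, and the median over the 13 genes was -0.80 on the log2 scale.

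Selenop had 906, 898 and 950 RPKM 3' of the UGA, against 1502, 1484 and 1664 RPKM 5' of it. The ratios of 0.603, 0.605 and 0.571 were nearly the same in all 3 libraries (log2 -0.75, SE 0.141, limma adjusted p = 0.0273). Selenop mRNA is known to hold several UGA codons, and the 950 nt of its 3' window lie beyond the first. Sephs2 had 183, 149 and 198 RPKM 3' of the UGA, against 318, 277 and 326 RPKM 5' of it. Its ratios of 0.576, 0.54 and 0.607 (log2 -0.80, SE 0.144, limma adjusted p = 0.0273) overlapped with those of Selenop.

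Gpx4 and Dio1 lay lower. Gpx4 had 69.2, 98.3 and 53.9 RPKM 3' of the UGA, against 300, 325 and 302 RPKM 5' of it. The ratios were 0.231, 0.302 and 0.178 (log2 -2.10, SE 0.222, limma adjusted p = 0.0131). Dio1 had 22.9, 23 and 15.6 RPKM 3' of the UGA, against 86.4, 109 and 79.5 RPKM 5' of it. The ratios were 0.265, 0.212 and 0.196 (log2 -2.14, SE 0.172, limma adjusted p = 0.0111). Every ratio of Gpx4 and Dio1 lay below every ratio of Selenop and Sephs2. With reads summed over the 3 libraries, the exact 95% counting interval was 0.189 to 0.274 for Dio1 and 0.216 to 0.269 for Gpx4, and 0.574 to 0.615 for Selenop and 0.533 to 0.619 for Sephs2. The reads carry no molecular identifiers, and such intervals cover counting error only.

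The thioredoxin-like proteins Selenot, Selenow and Selenom completed the lower genes. Selenot had 23.1, 32 and 26 RPKM 3' of the UGA, against 84.7, 56 and 90 RPKM 5' of it, with ratios of 0.272, 0.572 and 0.289 (log2 -1.47, SE 0.304, limma adjusted p = 0.0273), and at -1.81 without replicate 2. The ratio in the second library was about that of Selenop, and the others were near those of Dio1. Selenow had ratios of 0.361, 0.509 and 0.232 (log2 -1.51, SE 0.294, limma adjusted p = 0.0273), from 164 reads 3' and 13 reads 5' of the UGA. Selenom had ratios of 0.299, 0.0499 and 0.133 (log2 -2.41, SE 0.495, limma adjusted p = 0.0273), from 5 reads 3' and 15 reads 5' of the UGA, with an exact 95% counting interval of 0.0378 to 0.385. Without replicate 2 Selenom was at -1.86.

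Gpx3 was the gene called higher, with 2.48, 2.64 and 2.21 RPKM 3' of the UGA, against 1.48, 0.904 and 1.06 RPKM 5' of it (log2 0.85, SE 0.193, limma adjusted p = 0.0317). It rested on 20 reads 3' and 4 reads 5' of the UGA, the exact 95% counting interval of its ratio, 0.699 to 8.39, included equal densities, and weights from the reads took the call away (adjusted p = 0.145).

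The libraries disagreed on several of the 5 genes not called. Gpx1 had 1324, 751 and 1373 RPKM 3' of the UGA, against 1275, 4340 and 1020 RPKM 5' of it, and its ratios were 1.04, 0.173 and 1.35. Its summed reads gave a counting interval of only 0.504 to 0.542, far narrower than the spread between libraries. The estimate was -0.68 (SE 0.752, limma adjusted p = 0.557), and 0.24 (SE 0.273, adjusted p = 0.409) without replicate 2. Selenof had ratios of 1.33, 0.492 and 1.21, Msrb1 had 0.614, 0.302 and 0.778, and Selenoi had 2.22, 0.146 and 0.975. In all 3 genes the lowest ratio was that of replicate 2. Their estimates were -0.11 for Selenof (limma adjusted p = 0.795), -0.93 for Msrb1 (0.107) and -0.54 for Selenoi (0.706). Without replicate 2 Selenof was at 0.35, Msrb1 at -0.53 and Selenoi at 0.55, and these 3 were again not past the threshold. Selenoh had 20 reads 3' and 10 reads 5' of the UGA, ratios of 0.66 and 0.44 in the first 2 libraries and no 5' read in the other (estimate 0.55, SE 1.11, limma adjusted p = 0.708). Without that library, replicate 3, its estimate was -0.83 (adjusted p = 0.141). Selenon, under the minimum level, had 4 reads 3' and 13 reads 5' of the UGA.

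The order of the ratios was coarse. Of the 12 genes with a ratio in every library, each overlapped with its neighbour in the order. Without footprint replicate 2 the same 7 genes were lower, at limma adjusted p = 0.00123 to 0.0488, and Gpx3 was no longer called (0.69, adjusted p = 0.0626). Without replicate 1 or replicate 3 no gene passed limma's adjusted threshold, with adjusted p for the 7 genes of 0.101 to 0.29, while 3 and 5 genes had an unadjusted p under 0.05. The ratio had little relation to the length of the 5' window across the 13 genes, with a Spearman's rho of 0.055, given as a description.

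**Figure D3:**
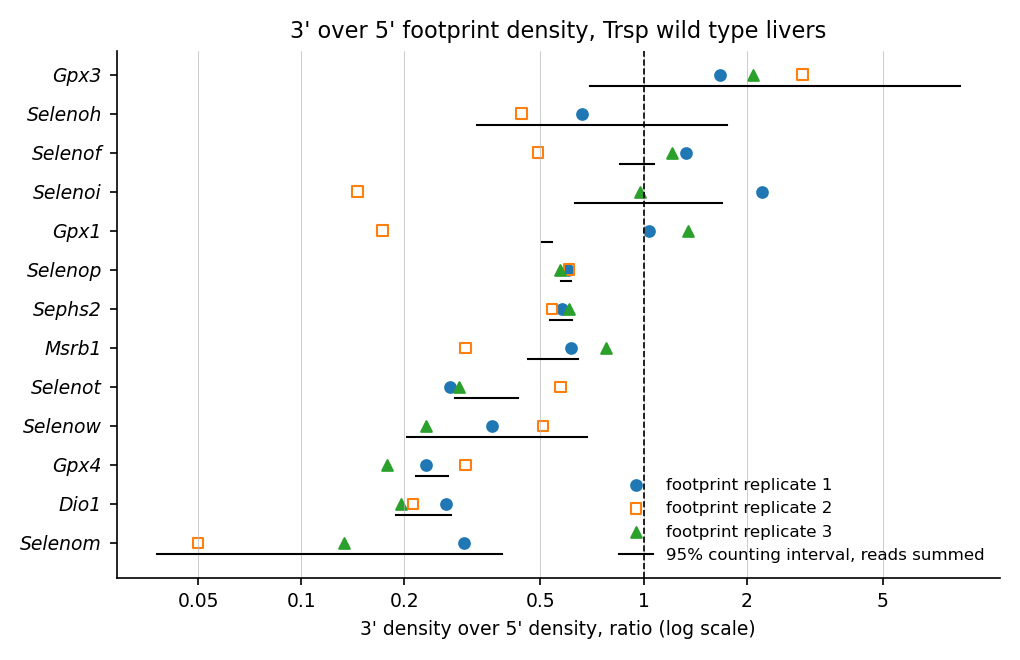
3' over 5' footprint density of 13 selenoprotein genes, as a ratio on a log axis, in each of the 3 footprint libraries of Trsp wild type livers. Symbols are libraries, the black line under them is the exact 95% counting interval of the summed reads, and the dashed line marks equal densities. Selenoh has no symbol for replicate 3, which had no 5' read. Selenop, Sephs2 and Dio1 have their symbols close together, while for Gpx1, Selenof, Msrb1 and Selenoi replicate 2 lies lowest.

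The ribosomes past the UGA were also set against the mRNA itself. The median gene had a 3' density 0.552-fold its mRNA level (log2 -0.86), which was subtracted. Relative to it, Selenoi, Gpx3 and Selenof were higher, and Sephs2, Gpx4 and Dio1 were lower. With limma over 12 genes, 25% were higher and 25% lower, together 50%. The 3' densities are those of the previous comparison and the mRNA levels those of the one before, so that the 3 comparisons are not independent.

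Dio1 had 22.9, 23 and 15.6 RPKM 3' of the UGA, against 91.9, 109 and 91 RPKM in mRNA. It was lowest of the 12 genes (log2 -1.38, SE 0.198, limma adjusted p = 0.00171). Gpx4 followed with 69.2, 98.3 and 53.9 RPKM 3' of the UGA, against 233, 262 and 329 RPKM in mRNA (log2 -1.06, SE 0.256, limma adjusted p = 0.0197). Neither was called for its 5' density over mRNA, where Dio1 was at -0.24 and Gpx4 at 0.04. Sephs2 was lower on both measures, at -0.50 (SE 0.157, limma adjusted p = 0.0388) for the 3' density over mRNA and -0.70 for the 5' density over mRNA.

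Selenoi had 106, 9.89 and 46.4 RPKM 3' of the UGA, against 12.4, 12.4 and 9.99 RPKM in mRNA. The second footprint library, with a single read, lay just below the mRNA values. The estimate was 2.49 (SE 0.777, limma adjusted p = 0.0388), and 3.32 (adjusted p = 0.000431) without that library. Gpx3 had 2.48, 2.64 and 2.21 RPKM 3' of the UGA, against 1.63, 1.35 and 1.59 RPKM in mRNA (log2 1.40, SE 0.142, limma adjusted p = 0.000404), and all footprint values lay above the mRNA values. These densities rested on 8, 7 and 5 reads 3' of the UGA. Weights from the reads gave a wider SE of 0.284 (limma adjusted p = 0.00331). Selenof had 194, 102 and 159 RPKM 3' of the UGA, against 136, 158 and 170 RPKM in mRNA. Its ranges overlapped, and its estimate of 0.79 (SE 0.256, limma adjusted p = 0.0388) was relative to the median gene. Without footprint replicate 2 it was 0.96 (adjusted p = 0.00189). In the authors' scaling without centring Selenof was at -0.07, and 1 gene was higher and 9 lower.

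The 6 genes not called were Selenot, Selenow, Selenoh, Gpx1, Selenop and Msrb1, with estimates of 0.25 to -0.39. Without footprint replicate 2 Gpx1 was at 0.15 and Msrb1 at -0.15, against -0.05 and -0.39 with it. Selenop was at -0.32 (limma adjusted p = 0.1), and at -0.40 (adjusted p = 0.0369) without footprint replicate 2. Dio1 and Gpx3 kept their calls without any of the 6 libraries. Gpx4 lost its call without RNA-seq replicate 2 (limma adjusted p = 0.0951) or 3 (0.0621). Selenof lost it without any library other than footprint replicate 2 (0.0635 to 0.15), Selenoi without footprint replicate 3 or any RNA-seq library (0.0936 to 0.11), and Sephs2 without footprint replicate 1 or any RNA-seq library (0.0851 to 0.188).

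**Figure D4:**
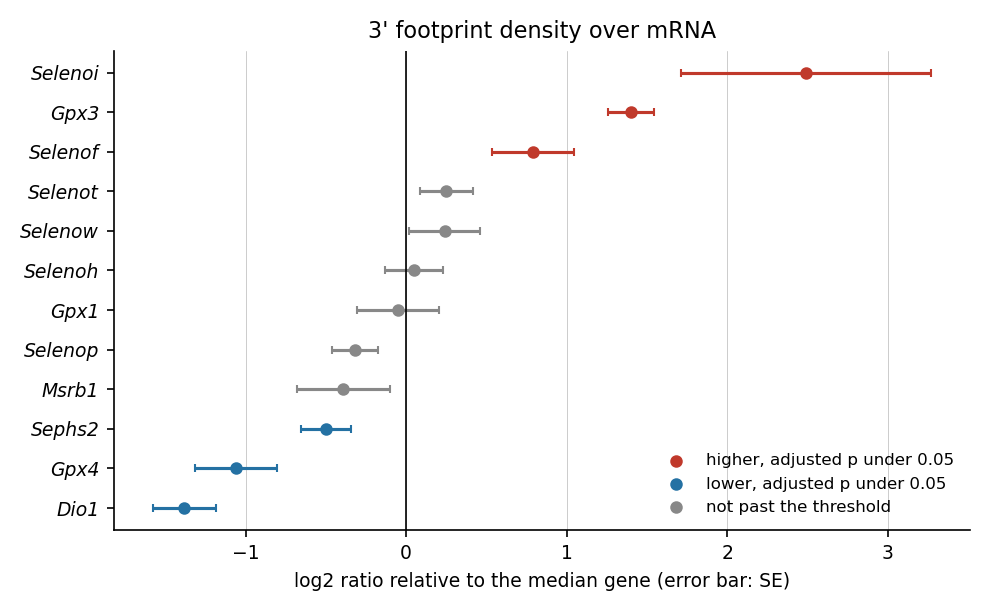
3' footprint density over mRNA for 12 selenoprotein genes in Trsp wild type livers, as log2 relative to the median gene, with the SE of the limma fit as bars. Selenoi, at 2.49, has the widest bar, and Dio1 and Gpx4 lie at -1.38 and -1.06.

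The counts by family below are to be read against the shares over all genes tested, which were 26.3% higher and 15.8% lower in 5' density over mRNA, and 7.69% higher and 53.8% lower in 3' over 5' density. By family, the glutathione peroxidases had mRNA levels from 0.043 RPKM for Gpx2 to 2079 RPKM for Gpx1. Of the 3 tested, none passed the threshold for 5' density over mRNA (median -0.37, against 0.00 over all genes tested), and 1 was higher and 1 lower in the 3' over 5' density (Gpx3 and Gpx4; median -0.68, against -0.80). The 3 thioredoxin reductases had mRNA levels of 2.27 to 36.8 RPKM. Txnrd1 alone of the 3 was called for its 5' density over mRNA, with estimates of 0.12 for Txnrd3 and -0.03 for Txnrd2. Of the deiodinases, Dio1 alone was tested. Of the 4 thioredoxin-like proteins with the CXXU redox motif, Selenow, Selenot and Selenom were higher in 5' density over mRNA (median of the 4 genes 0.73, against 0.00) and lower in 3' over 5' density (median -1.49, against -0.80), against 26.3% higher and 53.8% lower over all genes tested, while Selenoh was called in neither. Both measures contain the 5' density, so that a high 5' value raises the first and lowers the second. Selenom and Selenow rested on 15 and 13 reads 5' of the UGA. Selenow and Selenot lost their calls for 5' density over mRNA with each library centred on its own median gene (limma adjusted p = 0.268 and 0.297). Selenow also lost it with weights from the reads (0.0638).

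Of the 7 genes of the endoplasmic reticulum, 6 were tested for 5' density over mRNA, and 3 of them, Selenoi, Selenom and Selenot, were higher and none lower (median 0.58, against 0.00), against 26.3% higher and 15.8% lower over all genes tested. The lists overlap, so that the same calls are counted more than once. Selenom and Selenot are also among the thioredoxin-like proteins, and Selenoi is also on the housekeeping list and among the genes with a UGA near the stop codon. Of the 4 other enzymes and transport proteins, which form no single family, 3 were lower and none higher (median -0.52), against 15.8% lower over all genes tested. These 3, Selenop, Sephs2 and Msrb1, were the only lower genes among the 19 in that test, and Selenoo was at 0.00, being the median gene. The lists were chosen with earlier results of these data known, so that this count describes the genes and does not test the list. Of the 4 genes whose mRNA is known to fall when selenium is scarce, which are Msrb1, Gpx1, Selenoh and Selenow, 1 was higher and 1 lower in 5' density over mRNA (median -0.42), and 1, Selenow, was lower in 3' over 5' density (median -0.81, against -0.80). Of the 4 genes of the housekeeping list, which hold their expression when selenium is scarce, Txnrd1 and Selenoi were higher in 5' density over mRNA and Gpx4 and Txnrd2 were not called (median 0.40). Of the 7 genes whose UGA lies near the stop codon, 2 were higher and none lower (Selenoi and Txnrd1; median 0.16), a share near the 26.3% higher over all genes tested.

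The livers of the other wild type littermates gave a second reading of the same genes. The Trsp wild type and Secisbp2 wild type livers came from different colonies and different library sets, which cannot be told apart. Of 18 genes tested for the difference in 5' density over mRNA, 5.56% passed limma's adjusted threshold, and of 12 tested for that in 3' over 5' density, 8.33% did. In both the gene was Selenot. It had 23.1, 32 and 26 RPKM 3' of the UGA in Trsp wild type livers, against 8.79 and 7.25 RPKM in Secisbp2 wild type livers. Its 5' density was 84.7, 56 and 90 RPKM in Trsp wild type livers, against 130 and 158 RPKM in Secisbp2 wild type livers. Its mRNA level was 39.3, 42 and 42.5 RPKM in Trsp wild type livers, against 26.8 and 23.6 RPKM in Secisbp2 wild type livers. The groups overlapped in none of the 3 tables.

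In this comparison the 5' density over mRNA was not centred on the median gene, so that its values within the Trsp wild type livers lie 0.15 above those given before. The 5' density over mRNA of Selenot was 0.86 on the log2 scale in Trsp wild type livers and 2.49 in Secisbp2 wild type livers, a difference of -1.63 (SE 0.298, limma adjusted p = 0.00962). Its 3' over 5' density was -1.47 in Trsp wild type livers and -4.08 in Secisbp2 wild type livers, a difference of 2.61 (SE 0.467, limma adjusted p = 0.039). The first call was lost without Secisbp2 wild type footprint replicate 2 (adjusted p = 0.0622) or RNA-seq replicate 2 (0.0535). The second was lost without any footprint library other than Trsp wild type replicate 2 (0.0808 to 0.356).

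No other gene tested passed the threshold for a difference between the wild type groups, which does not show that they were alike. Gpx2 was under the minimum level in Trsp wild type livers and so was not tested. Its mRNA averaged 0.043 RPKM there and 2.33 RPKM in Secisbp2 wild type livers, where it had 21 reads 5' of the UGA. The 5' density over mRNA of Selenoi was 2.17 in Trsp wild type livers and 2.11 in Secisbp2 wild type livers (difference 0.06, SE 0.277, limma adjusted p = 0.958), and that of Txnrd1 was 0.91 and 0.92 (difference -0.01, SE 0.239, adjusted p = 0.958). Of the 3 genes called lower, Sephs2 was at -0.55 and -0.10 (difference -0.46, SE 0.206, adjusted p = 0.309). Selenop was at -0.43 and -0.04 (difference -0.39, SE 0.238, adjusted p = 0.36). Both lay closer to equal levels in the Secisbp2 wild type livers. Msrb1 was at -0.32 and -0.71 (difference 0.39, SE 0.203, adjusted p = 0.325). Dio1, not called, was at -0.09 and 0.77 (difference -0.86, SE 0.287, adjusted p = 0.147). The 3' over 5' density of Gpx4 was -2.10 in Trsp wild type livers and -2.66 in Secisbp2 wild type livers (difference 0.56, SE 0.37, limma adjusted p = 0.434), and that of Dio1 was -2.14 and -2.71 (difference 0.57, SE 0.32, adjusted p = 0.414). The 3' over 5' density of Selenop was -0.75 in Trsp wild type livers and -1.34 in Secisbp2 wild type livers (difference 0.59, SE 0.266, adjusted p = 0.33). The widest uncalled difference was that of Selenoi in 3' over 5' density, at -0.54 in Trsp wild type livers and 2.29 in Secisbp2 wild type livers (difference -2.83, SE 1.22, limma adjusted p = 0.33), from 18 and 71 reads in its 17 nt window.

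**Figure D5:**
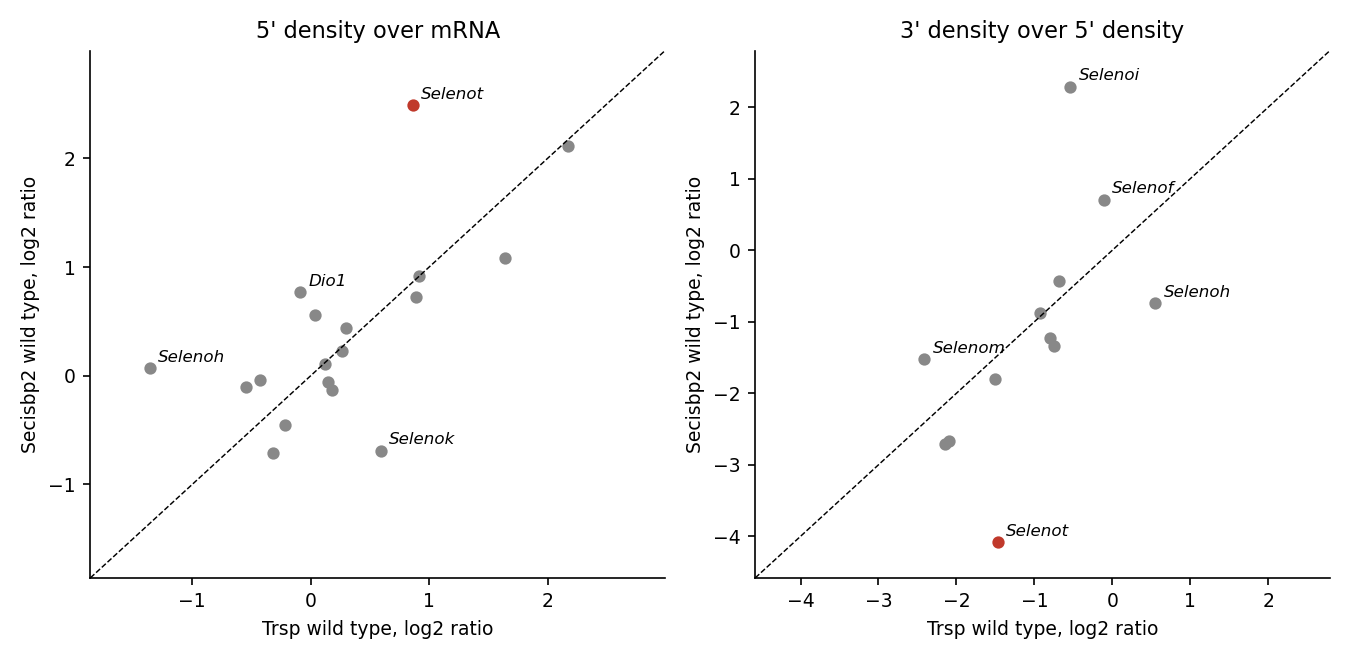
Each gene's log2 ratio in Trsp wild type livers, on the horizontal axis, and in Secisbp2 wild type livers, on the vertical axis, for 5' density over mRNA, not centred, in 18 genes and 3' over 5' density in 12. The dashed line marks equal values, red marks the gene past limma's adjusted threshold, Selenot, and other genes are labelled where the 2 values differ by more than 0.8. Selenot lies above the line on the left at 0.86 and 2.49, and below it on the right at -1.47 and -4.08.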

How the data were processed

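Footprints were RNase I resistant fragments from monosomes, and RNA-seq was of fragmented polyA RNA, both of 20 to 40 nt, per the labels' protocols. The authors deposited RPKM for footprints 5' of the UGA, footprints 3' of it and RNA-seq, per the file headers. The submitters' processing notes name the aligner Bowtie 0.12.8 and the build mm9, with no further detail. The counting, windows and annotation are not given in the sources used here, nor is the treatment of reads shared by similar genes. Current symbols came from RefSeq's gene table of GRCm38.p6, used for names alone (11 by symbol, 12 by synonym). The labels state 3 mice per background; whether the 2 assays shared livers is not stated, so the spread between libraries may be partly technical.

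RPKM values were whole multiples of a single read: all 515 values above 0 gave whole reads within 0.01, which yielded reads, window lengths and library totals. They served for depth, intervals and weights. Where 3 reads are given as the limit that a count of 0 allows, the limit is per library. The date that stood in place of the 3' value of Selenof in a Secisbp2 wild type library was read as its serial number, which is a whole 521 reads.

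Log2(RPKM + 0.5) was tested with limma 3.58.1 in R 4.3.3, for genes of at least 1 RPKM on average in the tables used, two-sided, with Benjamini-Hochberg adjustment and a threshold of 0.05. Within the Trsp wild type livers, the 5' and 3' densities over mRNA were centred on the median gene, and the 3' over 5' density was tested against equal density. For the colony comparison nothing was centred, and the minimum was required in each wild type group. An exact permutation test of 3 against 3 libraries cannot go below p = 0.1. Scripts were tested on simulated data. Tables and figures used Python 3.11.15, numpy 2.4.6, pandas 2.3.3, scipy 1.17.1 and matplotlib 3.10.9.

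The planned minimum for the 3' over 5' density concerned the 5' table alone. The 6 genes listed at 0 in the 3' table of every library were left out after the data were seen, since no 3' window could be recovered for them. The planned UGA position was replaced by the length of the 5' window. All 23 genes could be named, with full statistics for genes past a threshold and the 3 highest and 3 lowest of each measure. The genes and lists were chosen with earlier results of these data known. Alternatives were the pseudocount, the minimum level, weights, centring, both wild type groups in a single fit, a replicate block and each library left out.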

Additional observations from a re-analysis of the deposited data

Results flagged for a closer look

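Selenot differed between the wild type livers of the 2 colonies by limma's test of the difference itself. Its 5' footprint density over mRNA was 0.86 in Trsp wild type livers and 2.49 in Secisbp2 wild type livers on the log2 scale, not centred on the median gene, a difference of -1.63 (SE 0.298, adjusted p = 0.00962). Its 3' over 5' density was -1.47 in Trsp wild type livers and -4.08 in Secisbp2 wild type livers, a difference of 2.61 (SE 0.467, adjusted p = 0.039). Both measures contain the 5' density, from 160 reads in Trsp wild type livers and 396 reads in Secisbp2 wild type livers. Colony and library set cannot be told apart.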

How the results depend on the processing

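For 5' density over mRNA (5 higher, 3 lower), centring each library on its own median gene gave 2 higher and 5 lower, and leaving out a library gave 1 to 5 higher and 0 to 4 lower. For 3' density over mRNA (3 higher, 3 lower), no centring gave 1 higher and 9 lower, with Selenof at -0.07, and leaving out a library gave 1 to 3 higher and 1 to 4 lower. For 3' over 5' density (1 higher, 7 lower), centring on the median gene gave 2 lower, with Selenop at 0.05 and Sephs2, then the median gene, at 0.00. A minimum of 5 RPKM, under which Gpx3 is not tested, and weights from the reads each gave 0 higher with limma (7 genes at an unadjusted p under 0.05 in both), and leaving out a library gave 0 higher and 0 to 7 lower. Keeping the genes without a 3' window, an alternative chosen after seeing the data, gave 13 lower. The rho of 3' over 5' density with window length was -0.00699 with a minimum of 5 RPKM and -0.112 to 0.138 with a footprint library left out, the lowest without replicate 1. For the colony difference in 5' density over mRNA (1 lower), no minimum gave 2, and leaving out a library 0 to 3; for that in 3' over 5' density (1 higher), leaving out a library gave 0 to 1. Where no cause is named, the cause was not tested. Deviations of same-numbered footprint and RNA-seq libraries correlated at -0.33, -0.105 and -0.439 over 19 genes. Those of differently numbered libraries correlated at -0.133 to 0.466. With so few libraries such values cannot decide whether same-numbered libraries came from the same liver. With the replicate number as a block, 1 gene was higher and 0 lower in 5' density over mRNA (9 at an unadjusted p under 0.05), 3 higher and 2 lower in 3' density over mRNA, and 2 lower in the colony difference. Depth limits Selenom, Gpx3, Selenoh, Selenow and Selenoi, with 4 to 20 reads on at least 1 side of the UGA.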
